A study of Arabidopsis thaliana with 8 samples.

Results

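Roots of fit plants were set against roots of WT plants of Arabidopsis thaliana while both had sufficient iron. The comparison was defined by the sample labels and used 4 of the 8 arrays of the study, 2 of fit and 2 of WT, on 22746 probe sets once the control probe sets were left out. The plants of all groups were grown for 14 days on Gamborg's B5 medium. They then spent 3 days on a basal agar medium that held 50 µM Fe(III)-EDTA (the iron-sufficient groups, written +Fe) or 300 µM of the iron chelator ferrozine (written -Fe). The labels call the 2 replicates of each group biological and do not give the fit allele, the accession of the plants or how many plants were pooled. The 4 arrays of the -Fe groups are used below to place the levels found in the +Fe roots, and to test whether the genotype difference itself differed between the iron supplies.

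FIT is a basic helix-loop-helix (bHLH) transcription factor of the root epidermis that switches on iron reduction, iron import and the release of iron-mobilising coumarins. It works as a dimer with bHLH proteins of subgroup Ib, among them BHLH101, whose genes are themselves switched on when the plant is short of iron. Upstream of these stand bHLH factors of subgroup IVc, the small IRON MAN peptides, which keep those factors active, and ubiquitin ligases with hemerythrin domains (BTS, BTSL1 and BTSL2), which remove them. Plants without FIT take up iron poorly and are chlorotic. The comparison asks which transcripts already differ in fit roots when iron is supplied.

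Values are log2 signal intensities after the authors' RMA. A log2 fold change is the mean of the 2 fit arrays minus the mean of the 2 WT arrays, so a value of 1 is a doubling. Differences were tested with limma on the 4 arrays, and a probe set is described as called where its p, adjusted by Benjamini-Hochberg over all probe sets tested, was under 0.05. FIT has no probe set named for it alone, and its own transcript therefore gave no check of the labels. The mean 3' to 5' signal ratio of the actin, GAPDH and ubiquitin control transcripts, a measure of RNA integrity, lay near 1.5 on both WT arrays (1.48 on replicate 1) and was 1.08 and 1.60 on the fit arrays, so the genotypes overlapped. The arrays correlated across probe sets between r = 0.981, for WT replicate 2 with fit replicate 1, and r = 0.994, for WT replicate 1 with fit replicate 2. The replicates of WT correlated at 0.990 and those of fit at 0.991, so arrays of 1 genotype were no more alike overall than arrays of different genotypes.

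Few transcripts separated the genotypes, and those called were higher in fit. Of 22746 probe sets, 6 were called, which is 0.0264% of those tested, and all 6 were higher. They were BHLH101, the actin-binding protein gene NET3A and 4 probe sets that name no gene. By limma 0 were called lower in this fit, and 4 were without dim probe sets and 6 with a trended and robust variance. In the fit on the 4 arrays 453 were lower and 641 higher at an unadjusted p under 0.05. Together these are 4.81% of the probe sets. Over all probe sets the median log2 fold change was -0.002, and 48 probe sets were higher and 21 lower by a log2 fold change of 1 or more. In whole roots, a change in the number of cells of a type and a change in RNA per cell cannot be told apart.

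**Figure D1:**
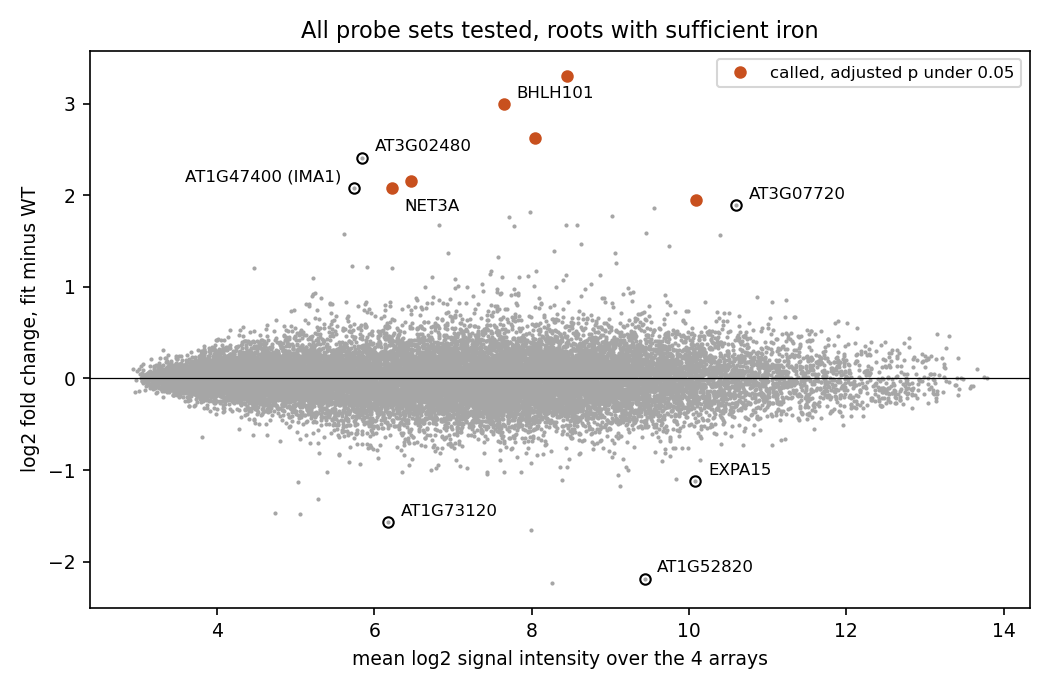
Each point is a probe set, placed by its mean log2 signal intensity over the 4 iron-sufficient arrays and its log2 fold change (fit minus WT). The 6 called probe sets are filled circles, all above 0, and 6 further named genes that were not called are open circles.

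BHLH101, a subgroup Ib bHLH factor and partner of FIT, had the largest difference of any named gene. Its log2 signal was 6.08 and 6.21 on the WT arrays and 9.04 and 9.24 on the fit arrays. The replicates of each genotype lay close together, and the genotypes were 7.96-fold apart (log2 fold change 2.99, SE 0.16, 95% interval 2.62 to 3.37, limma adjusted p = 0.0105). NET3A belongs to the NETWORKED family of plant proteins that bind actin filaments. Its signal was 5.14 and 5.23 in WT and 7.37 and 7.16 in fit, a 4.23-fold difference (2.08, SE 0.16, limma adjusted p = 0.0275).

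The other 4 called probe sets are given by their identifiers. The signal of 251677_at was 7.19 and 6.42 in WT and 10.28 and 9.93 in fit, the largest difference on the array at 9.84-fold (log2 fold change 3.30, SE 0.27, limma adjusted p = 0.0389). Its WT replicates were also the farthest apart of the 6. Probe set 264751_at had 6.62 and 6.84 in WT and 9.37 and 9.34 in fit (6.19-fold, limma adjusted p = 0.0118), and 245304_at had 5.34 and 5.44 in WT and 7.51 and 7.58 in fit (4.44-fold, limma adjusted p = 0.0197). Probe set 262427_s_at, whose suffix marks probes shared by several transcripts, had 8.97 and 9.26 in WT and 11.11 and 11.03 in fit (3.87-fold, limma adjusted p = 0.0389). In each of the 6 the lower fit array stood well above the higher WT array. Being called on these same arrays almost ensures such a gap, so it is no further support.

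**Figure D2:**
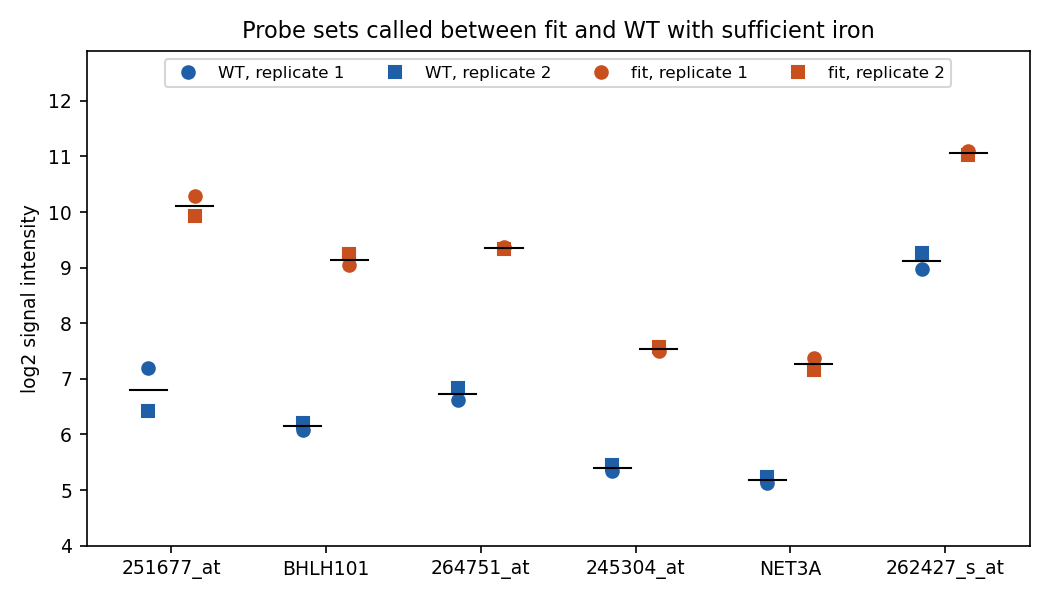
Log2 signal intensity of the 6 called probe sets on the 4 iron-sufficient arrays. Circles are replicate 1, squares replicate 2, and lines the group means. All 6 have both fit arrays above both WT arrays, an order that being called almost ensures. The widest gap between replicates is that of 251677_at in WT, 7.19 against 6.42.

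The calls depend on the spread used and on both fit arrays. When all 8 arrays shared 1 estimate of the spread, BHLH101 and 264751_at were called (limma adjusted p = 0.0115 for both). The others were not, with 0.0508 for 251677_at, 0.230 for 245304_at and 1 for both NET3A and 262427_s_at. With 16 added to the intensity before log2 none of the 6 was called (limma adjusted p from 0.137 to 0.540). Without fit replicate 1 or fit replicate 2 no probe set was called (limma, with 401 and 1730 at an unadjusted p under 0.05), and BHLH101 then had log2 fold changes of 3.09 and 2.89 with limma adjusted p of 0.0816 and 0.0945. Over all 14 settings tried the log2 fold change of BHLH101 ran from 2.74 to 3.09. Its limma adjusted p was highest at 0.137, with 16 added before log2. The lowest, 5.93e-06, came from a replicate block, which pairs arrays of equal number, and that pairing is not established.

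Of 17 listed regulators of the iron deficiency response, 10 were measured by a probe set of their own. Of these, 1 was called higher (BHLH101) and 0 were called lower, where 0.0264% of all probe sets were called, all higher. In 9 of the 10 both fit arrays were above both WT arrays, where 17.3% of all probe sets had that order. The median log2 fold change of the 10 was 0.36, against -0.002 over all probe sets tested. This list and its members were chosen with earlier results of these data known, so the counts describe it and are no independent evidence.

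Among these regulators, AT1G47400 (IMA1) encodes an IRON MAN peptide. Its signal was 4.73 and 4.68 in WT and 6.43 and 7.14 in fit. The difference was 4.23-fold (2.08, SE 0.24) and was not called (limma adjusted p = 0.108), with more spread between the fit replicates than between those of WT. AT1G74770 (BTSL1), a ubiquitin ligase with hemerythrin domains, had 8.84 and 8.48 in WT and 10.26 and 10.24 in fit (3.01-fold, log2 fold change 1.59, SE 0.17, limma adjusted p = 0.0823). A second, dimmer probe set for BTSL1 gave 5.49 and 5.11 in WT and 6.61 and 6.41 in fit (1.21, SE 0.18), so both probe sets put fit above WT. Its relative AT1G18910 (BTSL2) had 9.0 and 9.05 in WT and 9.23 and 9.29 in fit, a log2 fold change of 0.24 with a 95% interval of -0.11 to 0.59.

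PYE, a bHLH factor that represses iron storage and transport genes, had 6.46 and 6.57 in WT and 7.03 and 6.87 in fit (0.43, SE 0.15, limma adjusted p = 0.886). The subgroup IVc factors bHLH104, bHLH115, ILR3 and bHLH34 had log2 fold changes of 0.36, 0.36, 0.15 and -0.11, and their partner bHLH121 had 0.24. None of these was called. The 95% intervals of bHLH104 (-0.005 to 0.73) and bHLH115 (-0.13 to 0.85) hold both 0 and clear increases. Of the 10 regulators only bHLH34 had overlapping genotypes, where 15056 of all 22746 probe sets overlapped.

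Of 15 listed genes of iron uptake and coumarin synthesis 4 had a probe set of their own, all of them genes of coumarin synthesis or release, so iron reduction and import were not measured by these probe sets. Of these 4, 0 were called by limma in either direction, against 0.0264% of all probe sets (0 also at an unadjusted p under 0.05, against 4.81%). Their median log2 fold change was -0.05. AT3G12900 (S8H), which hydroxylates scopoletin to fraxetin, had 5.53 and 6.24 in WT and 5.72 and 5.64 in fit, with a 95% interval for the log2 fold change of -0.78 to 0.38. AT3G13610 (F6'H1), the enzyme at the start of the coumarin branch, had 11.06 and 10.85 in WT and 11.21 and 10.90 in fit (interval -0.32 to 0.53), and AT1G28680 (COSY), the coumarin synthase, had an interval of -0.28 to 0.48. BGLU42, a beta-glucosidase that acts in coumarin release, had 8.27 and 8.60 in WT and 8.07 and 8.05 in fit. Both of its fit arrays were below both WT arrays, as in 16.5% of all probe sets, with a log2 fold change of -0.37 (interval -0.78 to 0.04).

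The measured transporters of other metals were AT3G58060 (MTP8), which carries manganese and iron into the vacuole, and ZIP9, a ZIP family transporter. MTP8 had 5.11 and 5.15 in WT and 4.96 and 5.27 in fit, so the genotypes overlapped (log2 fold change -0.01, interval -0.41 to 0.39). ZIP9 had 6.24 and 5.88 in WT and 5.53 and 5.46 in fit (-0.56, SE 0.18, limma adjusted p = 0.886). Both fit arrays of ZIP9 were below both WT arrays, as in 16.5% of all probe sets, while 15056 of 22746 overlapped as MTP8 did.

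The 12 highest named genes of the comparison, taken where the genotypes did not overlap and the mean signal was not in the lowest 25% of probe sets, included several outside the iron regulators. AT3G02480, a late embryogenesis abundant family protein, had 4.77 and 4.52 in WT and 6.75 and 7.35 in fit (5.31-fold, log2 fold change 2.41, SE 0.23, limma adjusted p = 0.0661). AT3G07720, a kelch repeat protein, had 9.59 and 9.72 in WT and 11.80 and 11.30 in fit (3.72-fold, limma adjusted p = 0.0823). Neither passed the threshold. The log2 fold changes of AT3G56360 (1.56, SE 0.19), AT2G14095 (1.37, SE 0.18) and AT5G05250 (1.17, SE 0.20) were smaller, with limma adjusted p between 0.122 and 0.338. The choice of genes whose genotypes do not overlap fixes that order, so it is no support for these genes or for the lowest ones.

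Among the 12 highest were 3 genes that follow each other on chromosome 1 in the RefSeq gene table, AT1G52050, AT1G52060 and AT1G52070, all of the jacalin-related mannose-binding lectin family. AT1G52050 had 8.48 and 8.40 in WT and 9.88 and 9.52 in fit (1.26, SE 0.17). AT1G52060 had 9.01 and 9.05 in WT and 10.71 and 10.24 in fit (1.44, SE 0.19). AT1G52070 had 7.48 and 8.30 in WT and 9.72 and 9.01 in fit (1.47, SE 0.33), with both genotypes more spread than in its neighbours. None of the 3 was called (limma adjusted p = 0.176, 0.166 and 0.697). The nearest measured genes on either side, the pseudogene AT1G52020 and AR791, had log2 fold changes of 0.01 and -0.05. Whether the probes of the 3 lectin genes also bind each other's transcripts was not tested.

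The 12 lowest named genes began with AT1G52820, a dioxygenase of the 2-oxoglutarate and iron dependent family. Its signal was 10.69 and 10.37 in WT and 7.86 and 8.83 in fit, 4.54-fold apart (log2 fold change -2.18, SE 0.32, limma adjusted p = 0.208), and the fit replicates were almost 1 log2 unit apart. AT1G80320, of the same family, had 6.98 and 6.74 in WT and 5.75 and 5.93 in fit (-1.02, SE 0.17, limma adjusted p = 0.287). AT1G73120 had 7.04 and 6.88 in WT and 5.48 and 5.30 in fit (-1.57, SE 0.16) and the lowest adjusted p of any probe set that was lower in fit, 0.0678.

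The other genes among the lowest had varied functions. EXPA15, an expansin that loosens walls, had 10.85 and 10.44 in WT and 9.34 and 9.71 in fit (-1.12, SE 0.21, limma adjusted p = 0.444). AT4G11190, a dirigent family protein, had 9.73 and 9.71 in WT and 8.75 and 8.69 in fit (-1.002, SE 0.14, limma adjusted p = 0.208), among the tightest pairs of replicates of the 12. AT3G26040, of the HXXXD acyltransferase family, had 5.88 and 5.95 in WT and 4.99 and 4.79 in fit (-1.03, SE 0.16). The ERF family gene AT1G36060 had a log2 fold change of -1.11 (SE 0.37), AT5G22390 -1.13 (SE 0.25), AT1G74490 -1.003 (SE 0.24) and AT4G29690 -0.98 (SE 0.32), and none was called.

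**Figure D3:**
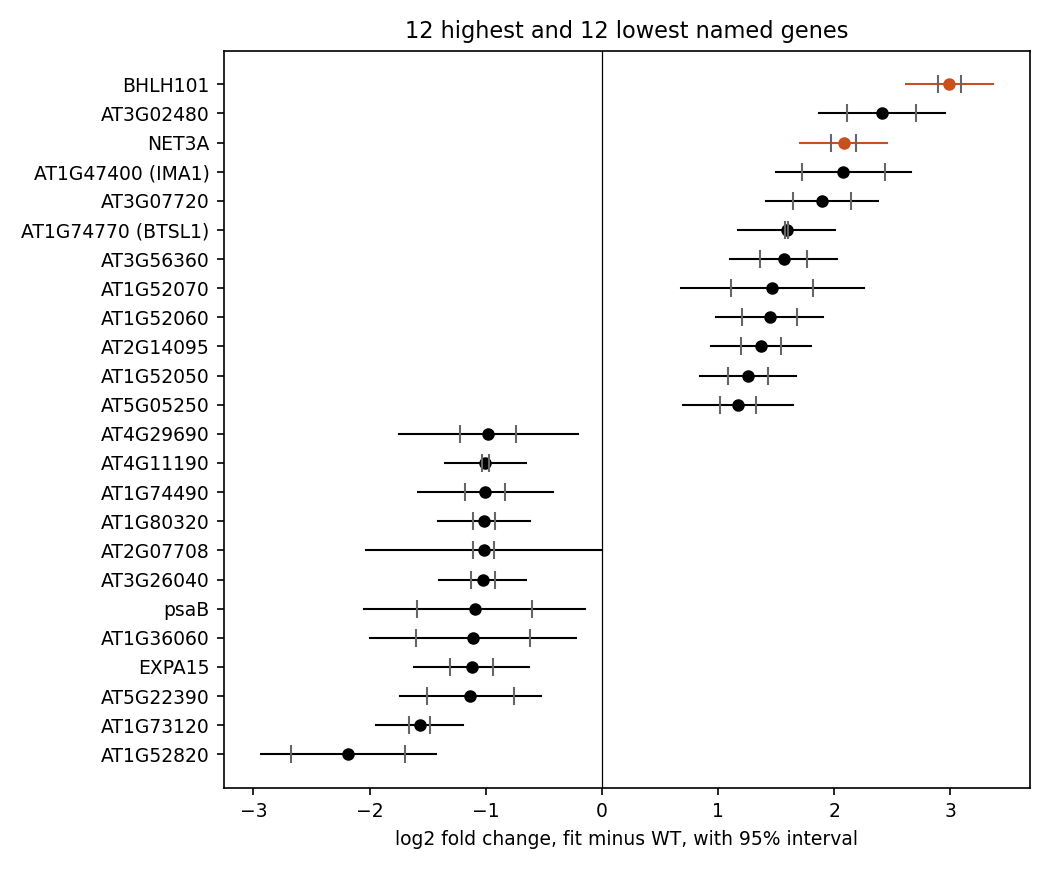
Log2 fold change (fit minus WT) of the 12 highest and 12 lowest named genes. Points are the fitted values with 95% intervals, coloured where called, and small ticks are each fit array minus the WT mean. BHLH101 at 2.99 and NET3A at 2.08 are the called ones, and AT1G52820 at -2.18 is the lowest.

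Gene families were described by their counts beside those of all probe sets, of which 17.3% had both fit arrays above both WT arrays, 16.5% had both below and 4.81% an unadjusted p under 0.05. A family holds only genes whose symbol or synonyms matched its name, so the counts may cover only part of it. AT3G02480, for example, was not matched as a late embryogenesis abundant protein. The members named were picked where the genotypes do not overlap, so that order is no support for them. Of 12 glutathione transferases, which conjugate glutathione to reactive compounds, 4 had both fit arrays above both WT arrays and 0 the reverse, with a median log2 fold change of 0.34. GSTF4 had 7.67 and 6.89 in WT and 8.26 and 7.83 in fit (0.76, SE 0.28), and GSTU23 had 6.46 and 5.98 in WT and 6.95 and 7.01 in fit (0.76, SE 0.20). For both, WT replicate 2 was the lowest array, and the median signal of the family was 8.06 and 7.57 in WT and 8.33 and 8.28 in fit. None of the 12 was called (limma, with 4 at an unadjusted p under 0.05).

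Of 18 expansins, 6 had both fit arrays below both WT arrays and 1 above, against 16.5% and 17.3% of all probe sets, with a median log2 fold change of 0.0008. Beside EXPA15, EXPB3 had 11.05 and 10.64 in WT and 10.24 and 10.19 in fit (-0.63, SE 0.18, limma adjusted p = 0.886). EXPA7, which acts in root hairs, had a log2 fold change of 0.42 (SE 0.32), and EXPA18, likewise of root hairs, 0.34 (SE 0.20). Their genotypes overlapped. For EXPA7 the WT arrays alone spanned 9.06 and 8.03. These were the only 2 of 10 root hair genes measured, and of the endodermis, stele and meristem lists 0 genes were measured, so the labelled tissue could be checked only by these transcripts and by the 3 shoot photosynthesis genes given further on.

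Of 69 genes of the plastid genome 53 had a negative log2 fold change and 0 were called (limma, with 13 at an unadjusted p under 0.05). In 21 both fit arrays were below both WT arrays, and in 3 above. Over all probe sets 16.5% were below in this way, 17.3% were above and 4.81% had an unadjusted p under 0.05, and 11271 of 22746 had a positive log2 fold change. The median signal of the 69 was 8.51 on WT replicate 1, 7.97 on WT replicate 2, 7.74 on fit replicate 1 and 7.85 on fit replicate 2. The median log2 fold change was -0.37 with all 4 arrays, -0.10 without WT replicate 1 and -0.51 without WT replicate 2. It was -0.29 without fit replicate 1 and -0.39 without fit replicate 2. The genes lower in fit numbered 44 of 69 without WT replicate 1 and 60 without WT replicate 2. They numbered 51 without fit replicate 1 and 52 without fit replicate 2.

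Single plastid genes differed in this respect. psaB, for a core protein of photosystem I, had 10.84 and 9.92 in WT and 8.79 and 9.78 in fit (-1.10, SE 0.40, limma adjusted p = 0.886), so that WT replicate 2 and fit replicate 2 lay close together. rps15, for a plastid ribosomal protein, had 6.36 and 6.22 in WT and 5.32 and 5.39 in fit (-0.94, SE 0.15, limma adjusted p = 0.287), with close replicates in both genotypes. petA, for cytochrome f, had 10.45 and 10.29 in WT and 9.45 and 9.78 in fit (-0.76, SE 0.17). AT2G07708, a gene outside the plastid genome and among the 12 lowest, had 9.10 and 7.65 in WT and 7.27 and 7.45 in fit. WT replicate 1 stood apart there too, but the suffix of this probe set marks probes shared by several transcripts. Whether its signal came from AT2G07708 alone was not tested, so it does not place the pattern outside the plastid genome.

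**Figure D4:**
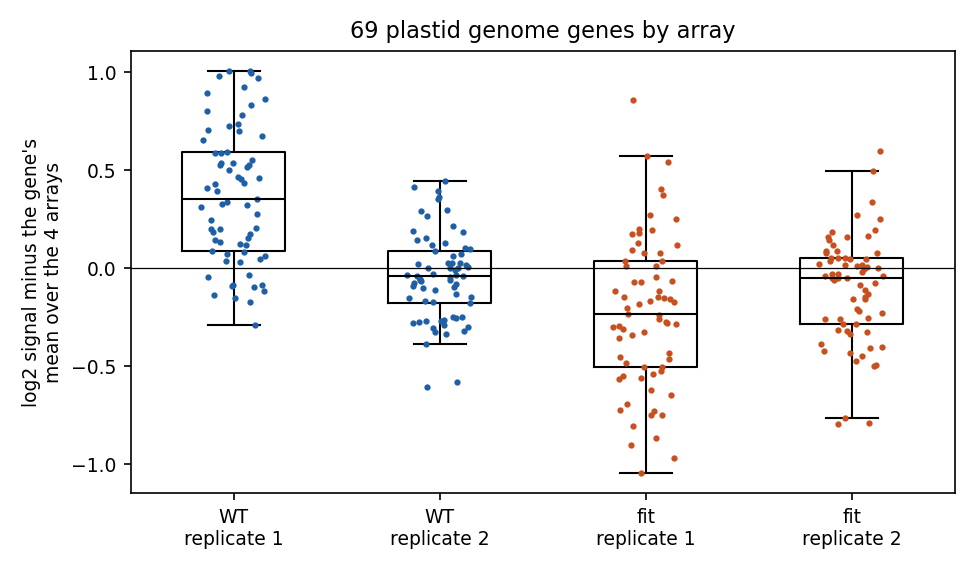
Log2 signal of the 69 plastid genome genes on each iron-sufficient array, as the difference from the gene's own mean over the 4 arrays. Boxes show the median and quartiles, whiskers reach to 1.5 times the box height, and points are genes. WT replicate 1 lies highest, while WT replicate 2 lies close to both fit arrays.

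Nuclear photosynthesis genes, whose transcripts mark green tissue, overlapped between genotypes in all 3 that were measured, as did 15056 of all 22746 probe sets. RCA, for Rubisco activase, had 7.57 and 7.69 in WT and 7.49 and 7.66 in fit, LHCB4.1 had a log2 fold change of 0.06 (SE 0.22) and PORB -0.21 (SE 0.18). Enzymes with iron-sulfur or haem groups were represented by 3 genes, of which 0 were called, against 0.0264% of all probe sets. SIR, the sulfite reductase, had 10.67 and 10.71 in WT and 10.45 and 10.39 in fit (-0.27, interval -0.62 to 0.07), SDH2-1 of mitochondrial complex II had 0.02 and the scaffold protein gene ISU1 had 0.16. The only measured genes of the copper and phenylpropanoid lists, CCS and HCT, had 0.09 and 0.10, and the reference genes AT2G28390 (SAND) and AT4G34270 (TIP41) had -0.13 and 0.06. No gene of the lists for iron translocation, iron storage, the methionine cycle, phosphate starvation, sulfur starvation or jasmonate had a probe set of its own.

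The iron-deficient arrays show where the levels of the +Fe fit roots lie. BHLH101, at 9.04 and 9.24 in fit +Fe, had 9.97 and 10.51 in WT -Fe and 11.59 and 11.51 in fit -Fe, so the mutant with iron lay between the WT groups. AT1G47400 (IMA1), at 6.43 and 7.14 in fit +Fe, had 9.42 and 9.84 in WT -Fe and 10.53 and 11.33 in fit -Fe. BTSL1, at 10.26 and 10.24 in fit +Fe, had 11.49 and 11.18 in WT -Fe. AT1G52820 fell instead, with 10.69 and 10.37 in WT +Fe, 7.86 and 8.83 in fit +Fe and 5.52 and 5.22 in WT -Fe. Its fit -Fe arrays, at 5.97 and 7.34, lay above those of WT -Fe, so it was no full mirror image of BHLH101. NET3A, at 7.37 and 7.16 in fit +Fe, had 7.13 and 6.59 in WT -Fe, so fit with iron was not below WT without it. AT1G73120 did not follow this order: it was 5.48 and 5.30 in fit +Fe, below the 7.04 and 6.88 of WT +Fe, and 10.83 and 10.65 in WT -Fe.

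**Figure D5:**
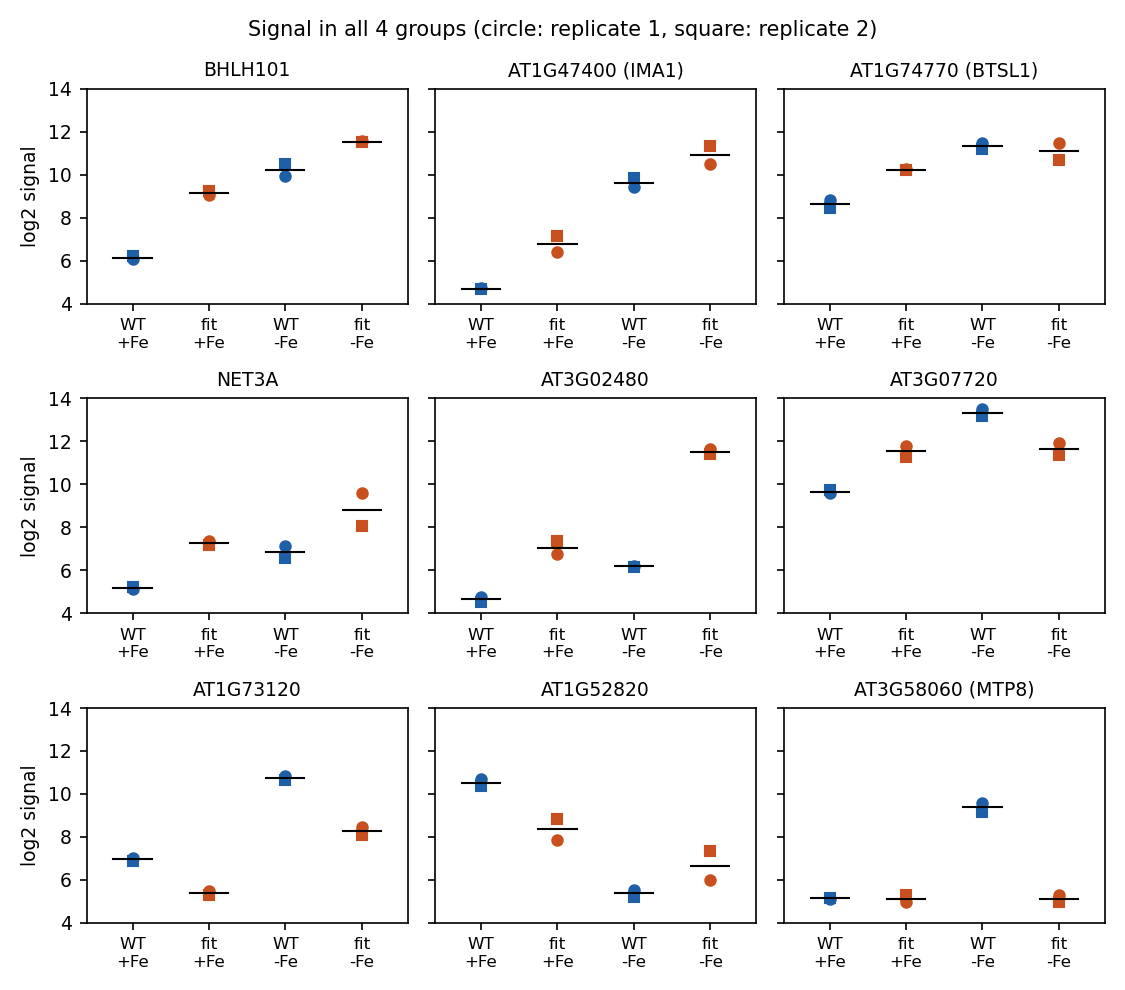
Log2 signal of 9 genes in the 4 groups (genotype and iron supply), circles for replicate 1, squares for replicate 2 and lines for group means. BHLH101, AT1G47400 and AT1G74770 in fit +Fe lie between WT +Fe and WT -Fe, AT1G52820 lies between them in the falling direction, and MTP8 is high in WT -Fe alone.

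The -Fe arrays of replicate 2 stood apart in the 3' to 5' control ratio, at 3.81 in WT and 7.99 in fit, against 1.14 and 1.55 for replicate 1. Leaving both out leaves only replicate 1 in each -Fe group. The comparison of fit with WT under -Fe shares no array with the one under +Fe, and the difference of both differences was tested in a fit over all 8 arrays. Of 22746 probe sets 17 were called in that test, or 0.0747%. Of these, 15 had a signed fit minus WT value that was higher with iron than without (0.0659%), and 2 had a lower one (0.00879%). A higher signed value need not be a larger difference: MTP8, among the 15, had -0.01 with iron and -4.24 without. Without the 2 arrays of high control ratio, a setting added after the data were seen, 24 were called. Of the 6 called under +Fe, 5 kept their direction under -Fe, where 49.4% of all probe sets had the same sign in both. Of the 12 highest named genes 7 kept it, and of the 12 lowest 5, nearer to that share. Among the 6, 1 was called as differing between the iron supplies, 264751_at. Its log2 fold change was 2.63 with iron and 0.31 without, where WT had reached 10.58 and 10.77 (difference 2.32, SE 0.25, limma adjusted p = 0.0358). For BHLH101 it was 2.99 with iron and 1.31 without (difference 1.68, SE 0.31, limma adjusted p = 0.243), and for NET3A 2.08 and 1.96 (difference 0.13, SE 0.63).

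The exception in direction was 262427_s_at, at -1.30 without iron. Its fit -Fe replicates were 8.21 and 10.95, against 10.76 and 10.997 in WT -Fe, and the difference was not called (3.25, SE 1.02, limma adjusted p = 1.00). Without fit -Fe replicate 2 the difference was 4.62, and without both arrays of high control ratio it was 4.50. Both settings leave replicate 1, at 8.21, as the only fit -Fe array. Without fit -Fe replicate 1 instead, the difference was 1.88. Over the 14 settings it ran from 1.88 to 4.62.

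AT3G02480 and AT3G07720 differed between the iron supplies in opposite ways. AT3G02480 was 2.41 log2 units higher in fit with iron and 5.34 higher without, where fit had 11.66 and 11.40 (difference -2.93, SE 0.34, limma adjusted p = 0.0393). AT3G07720 had a log2 fold change of 1.90 with iron and -1.68 without, where WT had 13.52 and 13.17 (difference 3.57, SE 0.38, limma adjusted p = 0.0358). MTP8 overlapped between genotypes with iron, but had a log2 fold change of -4.24 without it (difference 4.23, SE 0.32, limma adjusted p = 0.00536). These calls rest on few arrays. When each of the 8 arrays was left out in turn, MTP8 (AT3G58060) was called in 4 of 8 fits (limma adjusted p from 0.0111 to 0.0805), AT3G07720 in 2 (0.0288 to 0.256), AT3G02480 in 1 (0.0499 to 0.256) and 264751_at in 1 (0.0499 to 0.298). Leaving out any one of the +Fe arrays ended the call of each of these. Without the arrays of high control ratio MTP8 and AT3G07720 were called (0.0105 and 0.0381), while AT3G02480 and 264751_at were not (0.0881 and 0.083). The 3 lectin genes were all lower in fit under -Fe (-0.96, -0.69 and -1.20 for AT1G52050, AT1G52060 and AT1G52070), the opposite of +Fe, and none of the 3 differences was called (limma adjusted p = 0.326, 0.181 and 0.202).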

How the data were processed

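Biotin-labelled cRNA was hybridised to Affymetrix arrays, per the labels' protocols. Each deposited file holds intensity on the linear scale, 1 value per probe set, made by the authors with RMA, per the submitters' processing notes. The RMA version, and whether the arrays were normalised jointly, is not given in the sources used here. Fold changes of dim probe sets are understated by RMA. Groups and replicate numbers came from the titles.

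Log2 was taken of the intensity. Of 22810 probe sets, 64 Affymetrix controls were set aside. Of the 22746 tested, 13513 name 1 gene, 503 several and 8730 are unnamed here. Names come from GEO's platform table, which is old, and the RefSeq gene table of TAIR10.1, in which 13436 of the 13513 have a locus. Names in brackets come from the gene lists. No coordinates are printed because the array's build is not given.

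The main fit was limma 3.58.1 in R 4.3.3 on the 4 arrays (2 residual and 4.68 prior degrees of freedom). Differences between iron supplies came from a fit of the 4 group means over 8 arrays (4 residual and 3.82 prior). Errors are limma's SE. The fit was also run on simulated arrays with independent noise as a check of the code, which says nothing about the calls made here. The p-values set each difference against the spread between these samples, which limma moderates with that of all probe sets. With 4.68 prior against 2 residual degrees of freedom, the shared part weighs more than a probe set's own replicates. A gene takes its brightest probe set.

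Text names follow a rule: every called probe set, the 12 highest and 12 lowest named genes whose genotypes do not overlap and whose mean log2 signal reaches 4.90 (the 25th percentile), all measured members of both iron lists, up to 4 of each other list, and up to 2 per family. Plastid genes, gene neighbours and the second BTSL1 probe set were added after their values were seen. Members, lists and families were chosen with earlier results of these data known. The members named for a family were those of largest change among the ones whose genotypes do not overlap. Families came from symbols and synonyms; the heat shock pattern also matched BRK1, which is no such gene (-0.33), and that family was set aside.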

Additional observations from a re-analysis of the deposited data

Results flagged for a closer look

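The genotype difference with sufficient iron differed from that without in the 8-array test for 5 of the probe sets named here. The log2 values that follow are the difference with iron minus the difference without. MTP8 (AT3G58060) had 4.23, AT3G07720 3.57, the pectin methylesterase gene ATPMEPCRB 2.81 and the unnamed probe set 264751_at 2.32, all with a limma adjusted p under 0.05. AT3G02480 had -2.93, its excess in fit being the larger without iron. ATPMEPCRB was 5.01 and 4.88 in WT and 4.13 and 4.52 in fit with iron, and 8.09 and 7.80 in WT against 4.34 and 4.68 in fit without (limma adjusted p = 0.0358). Leaving out each array in turn, ATPMEPCRB was called in 1 of 8 fits (0.0343 to 0.284).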

How the results depend on the processing

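The comparison made 6 calls. It made 2 with the spread of all 8 arrays, 0 with 16 added to the intensity before log2, 2 over probe sets naming 1 gene, 10 with median centring, 28 without dim probe sets (24 higher, 4 lower), 30 with a trended and robust variance (24 higher, 6 lower), 15 at an adjusted p under 0.1 (14 higher, 1 lower, chosen after seeing the data) and between 0 and 7 without 1 array. Without either fit array the count was 0, and a lone array is assumed to vary like the other genotype. The deviations of replicate 1 from their group means correlated at r = 0.330 between WT and fit. Since 2 pairs do not establish that equal numbers share an origin, the replicate block is given only as a setting. It made 133 calls, 98 higher and 35 lower, and 185 for the difference between iron supplies. That difference had 17 calls, 11 with 16 added and between 3 and 26 without 1 array. Without dim probe sets, with a trended variance or with the block, IMA1, BTSL1, AT3G02480, AT3G07720, AT1G73120 and AT1G52820 passed the threshold. AT1G52060, AT2G14095 and AT3G56360 were each called in 3 of 14 settings, as often as IMA1 and BTSL1. Quantile normalisation made 9 calls, all higher. No called value changed sign in any setting. The 2 arrays per genotype limit the precision.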

Other observations

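Of 18 cytochrome P450 genes matched by name, 4 had both fit arrays above both WT arrays and 3 below, near the 17.3% and 16.5% of all probe sets. Their median log2 fold change was 0.06 and 0 were called (limma, with 1 at an unadjusted p under 0.05). CYP71B23 had 7.41 and 6.88 in WT and 8.34 and 7.79 in fit (0.92, SE 0.26), and CYP71B34 had 6.21 and 5.30 in WT and 6.31 and 6.52 in fit. Of 7 WRKY transcription factor genes 1 had both fit arrays above and 1 both below, WRKY6 at 0.17 and WRKY20 at -0.24, again near those shares. AT2G46140, a late embryogenesis abundant protein, had 10.09 and 9.83 in WT and 10.18 and 10.19 in fit. The defensin gene PDF1.2b had -0.18, the MYB gene AT5G47390 -0.06 and the pectin methylesterase gene PME61 -0.10. Each had both fit arrays below both WT arrays, as had 16.5% of all probe sets. Family members were picked where the genotypes do not overlap, so that order is no support for them. PME61 was dim, with a mean log2 signal of 4.48 in WT and 4.38 in fit.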
